A study of Mus musculus with 6 samples.

Results

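Transcripts of 10 genes of the neuronal cytoskeleton were followed in cultured mouse cortical neurons after knockdown of Opa1, whose product fuses the inner membranes of mitochondria. The genes were taken by symbol from the table of 55471 gene identifiers. They are 5 subunits of neuronal intermediate filaments (Nefl, Nefm, Nefh, Ina and Prph) and 5 microtubule-associated proteins (Map1b, Map2, Mapt, Dcx and Dclk1). All 10 were found and all 10 passed the filter on low counts, as did 16562 genes in all.

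The neurons came from cortices of CD1 mouse embryos at E14.5 to E15 and were grown for 11 days with the mitotic inhibitor cytosine arabinoside at 2 uM. In the shOpa1 group, listed with the genotype Opa1 knock-down, lentivirus with a short hairpin RNA against Opa1 was added on day 6. In the shControl group, listed as WT, neurons received a control hairpin on the same day. Both groups were harvested on day 11 and held 3 libraries each, which the labels number 1 to 3 and call biological replicates. Hairpin sequences were not used here.

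Neurofilaments are the intermediate filaments of axons. The light subunit (Nefl) forms the core together with the medium and heavy subunits (Nefm and Nefh), whose long tails project sideways, and alpha-internexin (Ina) is the subunit that predominates early in the development of central neurons. Microtubules are stabilised, spaced and bundled by associated proteins that sort within the cell, MAP2 to dendrites and tau (Mapt) to axons, while MAP1B and doublecortin (Dcx) are known from growing and migrating neurons.

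Library totals ran from 29476268 to 32961580 counts in shOpa1 and from 24676709 to 28253400 counts in shControl. The targeted transcript was at 10.2, 8.64 and 8.50 CPM (counts scaled to library size and composition) in shOpa1, against 202, 205 and 202 CPM in shControl. Libraries with the same number deviated alike from their group means, and both libraries numbered 3 lay apart from the other 4 on the second principal component. Values by pair are therefore given beside most members' results. Markers of neurons summed to between 4423 and 4507 CPM in shOpa1 and between 4616 and 5207 CPM in shControl. The 10 astrocyte markers summed to between 126 and 189 CPM in shOpa1 and between 252 and 428 CPM in shControl, most of it from Slc1a2. The 10 microglial markers summed to between 3.45 and 5.22 CPM in shOpa1 and between 5.83 and 8.97 CPM in shControl, with Itgam at 0 in all shOpa1 libraries and none at 0 in all shControl libraries; Cx3cr1, Csf1r, P2ry12 and 6 others were too low to test. In RNA from whole cultures, fewer cells of a type and less RNA per cell cannot be told apart.

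Of the 10 transcripts, 2 rose and 4 fell in shOpa1 at an adjusted p under 0.05 (edgeR quasi-likelihood test, Benjamini-Hochberg adjustment over all tested genes). That is 60.0% of the members, against 38.9% of all tested genes called in either direction, 18.9% higher and 20.0% lower. Ina and Map1b fell to less than 50% of their shControl level, Dcx and Map2 fell less, and Nefl and Nefh rose. With the replicate number as a block, Nefm and Mapt also passed as lower, which makes 6 lower and 2 higher, while 59.5% of all tested genes were called in that fit, 28.8% higher and 30.7% lower. The groups did not overlap in CPM for 7 of the 10 members, against 51.8% of all tested genes. The median log2 fold change of the 10 was -0.25, beside -0.01 over all tested genes.

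**Figure D1:**
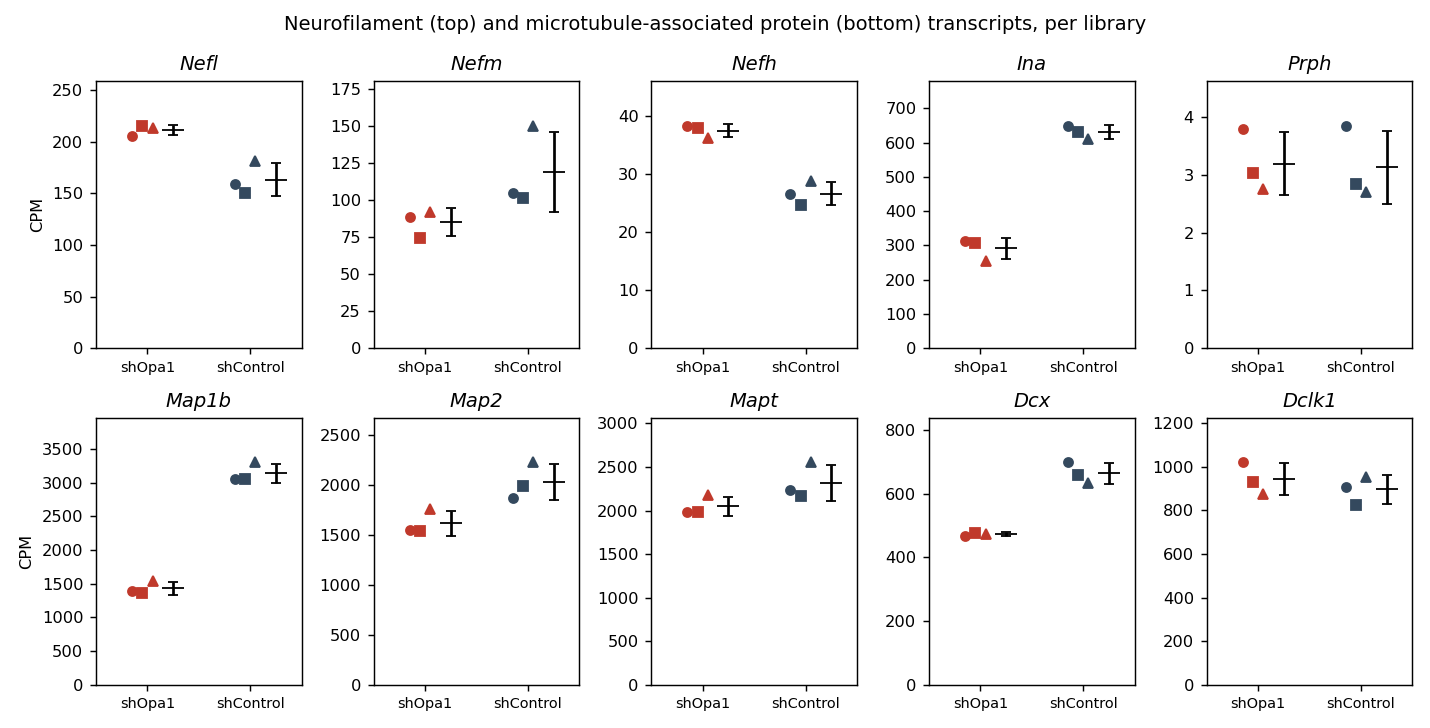
CPM of each of the 10 transcripts in every library, on axes that start at 0, with shOpa1 in red and shControl in dark blue. Circles, squares and triangles are replicates 1, 2 and 3, and the black bars are the group mean ± SD (n = 3). The groups stand apart for Nefl, Nefm, Nefh, Ina, Map1b, Map2 and Dcx and overlap for Prph, Mapt and Dclk1.

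Ina, which encodes alpha-internexin, fell most among the filament subunits. It was at 312, 308 and 255 CPM in the shOpa1 libraries 1 to 3, against 650.0, 632 and 611 CPM in the shControl libraries. Every shOpa1 library lay far below every shControl library. Ina averaged 291 ± 31.4 CPM in shOpa1 and 631 ± 19.6 CPM in shControl (SD, n = 3 each), so that 46.2% of the shControl level was left. On the log2 scale the change was -1.11 (SE 0.0868; edgeR, adjusted p = 0.000147), and it was -1.04 for the first 2 pairs and -1.26 for pair 3. Ina (ENSMUSG00000034336, plus strand of chromosome 19, bases 47014698 to 47025327 of GRCm38) has a neighbour, and 14.1% of its exon bases overlap exons of Nt5c2 on the other strand, where unstranded counting cannot assign reads.

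Nefl, the light subunit on which the filament is built, went the other way. Its values were 206, 216 and 213 CPM in shOpa1, against 159, 150.0 and 182 CPM in shControl. The 3 shOpa1 libraries were close together and all above the highest shControl library. Nefl rose by 0.37 (log2; SE 0.0794; edgeR, adjusted p = 0.00896), with 0.46 for the first 2 pairs and 0.23 for pair 3.

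Nefh, the heavy subunit with the longest side arm, also rose. It was measured at 38.4, 37.8 and 36.2 CPM in shOpa1, against 26.5, 24.6 and 28.7 CPM in shControl. The spread within each group was small beside the gap between them. The rise was 0.49 on the log2 scale (SE 0.0792; edgeR, adjusted p = 0.00278), larger in the first 2 pairs (0.58) than in pair 3 (0.33). The gene (ENSMUSG00000020396) is on chromosome 11 from 4938754 to 4948064 on the minus strand and shares no exon bases with another gene.

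Nefm, the medium subunit, did not pass the test without the block. It was at 88.9, 74.3 and 91.9 CPM in shOpa1, against 105, 102 and 151 CPM in shControl. All shOpa1 values lay below all shControl values, and shControl library 3 stood well above the other 2. Its log2 fold change of -0.49 (SE 0.165) had an adjusted p of 0.0546 in edgeR, and with the replicate block it was -0.47 (edgeR, adjusted p = 0.00104). The authors' deposited table lists Nefm at -0.46 with an adjusted p of 4.56e-06. Without shControl replicate 3 it was -0.28 (edgeR, adjusted p = 0.0705). The first 2 pairs gave -0.34 (edgeR, adjusted p = 0.00866) and pair 3 gave -0.71.

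Nefl and Nefm are neighbours on chromosome 14. Nefl (ENSMUSG00000022055) runs from 68083863 to 68089095 on the plus strand and Nefm (ENSMUSG00000022054) from 68082590 to 68124846 on the minus strand. Their gene models share 1108 exon bases, which is 32.8% of those of Nefl and 19.2% of those of Nefm. The counting command names no strand and no option for reads that overlap several genes, so the values of both genes are uncertain in that stretch.

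Prph encodes peripherin, a filament subunit known mainly from peripheral neurons, and it was the scarcest of the 10. Its values were 3.80, 3.04 and 2.75 CPM in shOpa1, against 3.86, 2.84 and 2.71 CPM in shControl. The groups overlapped throughout. The difference was 0.03 on the log2 scale (SE 0.212; edgeR, adjusted p = 0.924), from 90 to 118 counts per shOpa1 library and 73 to 92 per shControl library. It was -0.02, 0.08 and 0.02 in pairs 1 to 3. The smallest change detectable at this depth was not computed.

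As the filament genes moved apart, the composition of the filament transcripts differed between the groups. Levels were compared between genes as fragments per kilobase of gene model and scaled library size (FPKM), since longer transcripts collect more counts. Ina made up 52.3, 52.0 and 46.8% of the summed FPKM of the 5 subunits in shOpa1 libraries 1 to 3, against 73.1, 73.7 and 68.1% in shControl. Nefl made up 33.1, 34.96 and 37.5% in shOpa1, against 17.1, 16.8 and 19.4% in shControl. The mean share of Nefh was 5.27 ± 0.110% in shOpa1 and 2.45 ± 0.136% in shControl, and that of Nefm was 8.28 ± 1.21% in shOpa1 and 7.56 ± 1.5996% in shControl (SD, n = 3 each). The groups did not overlap for Ina, Nefl, Nefh and Prph. A share also moves when the other subunits change, and Prph overlapped in CPM. For each of these 4 shares the two-sided exact permutation test gave p = 0.1, the smallest value that 3 against 3 libraries allow, and 0.125 after adjustment over the 10 shares compared. For Nefm the exact permutation test gave p = 0.5.

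The summed level of the 5 subunits was 178 ± 8.75 FPKM in shOpa1 and 272 ± 6.51 FPKM in shControl (SD, n = 3 each; exact permutation p = 0.1), a ratio of 0.656. Relative to Nefl, Ina was at 1.58, 1.49 and 1.2496 in shOpa1, against 4.27, 4.39 and 3.51 in shControl. The ratio of Nefm to Nefl was 0.235 ± 0.0295 in shOpa1 and 0.423 ± 0.0540 in shControl, while Nefh and Nefl kept closer, at 0.150 ± 0.00708 in shOpa1 and 0.138 ± 0.00384 in shControl (SD, n = 3 each). The groups did not overlap for any of these 3 ratios (exact permutation p = 0.1 for each, also 0.1 after adjustment over 7 ratios). When the exon bases shared with other genes were left out of the lengths, a setting chosen after seeing the data, the mean share of Nefl was 41.1% in shOpa1 and 21.6% in shControl, and that of Ina 46.0% in shOpa1 and 68.3% in shControl.

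**Figure D2:**
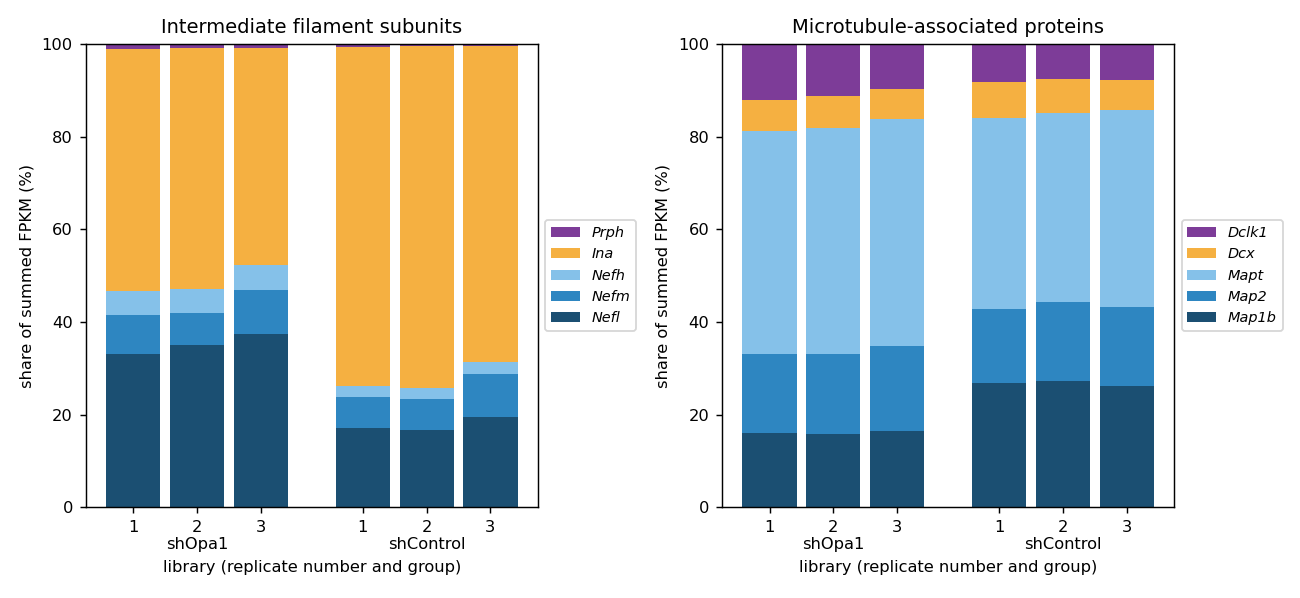
Share of each gene in the summed FPKM of its family, in percent, for every library, with the 3 shOpa1 libraries left of the 3 shControl libraries in both panels. Ina takes 46.8 to 52.3% of the filament transcripts in shOpa1 and 68.1 to 73.7% in shControl, and Map1b takes 15.9 to 16.6% of the microtubule-associated protein transcripts in shOpa1 and 26.2 to 27.3% in shControl.

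Among the microtubule-associated proteins Map1b changed most. MAP1B is a long scaffold protein of growing axons that binds microtubules and actin. Its transcript was at 1393, 1365 and 1544 CPM in shOpa1, against 3052, 3058 and 3305 CPM in shControl. The highest shOpa1 library did not come near the lowest shControl library. It averaged 1434 ± 96.5 CPM in shOpa1 and 3138 ± 144 CPM in shControl (SD, n = 3 each), or 45.7% of the shControl level. Map1b fell by 1.13 (log2; SE 0.0727; edgeR, adjusted p = 7.46e-05), and lay between -1.16 and -1.10 in the 3 pairs. Map1b (ENSMUSG00000052727) is on chromosome 13 from 99421446 to 99516540 on the minus strand, with no exon bases shared. A fall of at least 2-fold at this threshold was seen for 5.65% of all tested genes, and for Map1b and Ina among the 10.

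Dcx encodes doublecortin, which binds between the protofilaments of microtubules in migrating and young neurons. It was at 466, 478 and 475 CPM in shOpa1, against 699, 658 and 634 CPM in shControl. The shOpa1 libraries were close together and all lay below the shControl libraries. Its fall of 0.49 had an SE of 0.0584 (log2 scale; edgeR, adjusted p = 0.000834). The first 2 pairs gave -0.52 and pair 3 gave -0.42. Dcx (ENSMUSG00000031285) is on chromosome X from 143855842 to 143933311 on the minus strand.

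Dclk1, a relative of doublecortin that carries a kinase domain as well, showed no such fall. Its values were 1021, 932 and 877 CPM in shOpa1, against 909, 826 and 955 CPM in shControl. The groups overlapped, with shOpa1 higher in pairs 1 and 2 and lower in pair 3. Over all 6 libraries its log2 fold change came to 0.07 (SE 0.0821; edgeR, adjusted p = 0.52). It was 0.18 for the first 2 pairs (edgeR, adjusted p = 0.0593) and -0.12 for pair 3. The ratio of Dcx to Dclk1 in FPKM was 0.609 ± 0.0523 in shOpa1 and 0.899 ± 0.0842 in shControl (SD, n = 3 each; exact permutation p = 0.1), with no overlap between the groups.

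Map2, the dendritic protein that spaces microtubules, fell to 1549, 1539 and 1763 CPM in shOpa1, against 1869.8, 1993 and 2228 CPM in shControl. The groups were separate but close, and both libraries numbered 3 were the highest of their group. Map2 fell by 0.33 (log2; SE 0.0889; edgeR, adjusted p = 0.0232). This call was lost without shOpa1 replicate 1 or 2 and without shControl replicate 2 or 3 (edgeR, adjusted p between 0.0558 and 0.0933). The log2 fold change stayed between -0.40 and -0.26 over the 6 fits without 1 library. With the replicate block it was -0.33 (edgeR, adjusted p = 4.23e-05). The first 2 pairs gave -0.32 (edgeR, adjusted p = 0.00152) and pair 3 gave -0.34. The authors' deposited table lists Map2 at -0.32 with an adjusted p of 1.14e-09.

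Mapt, which encodes tau, had the highest FPKM of the 10 genes. It was at 1985, 1981 and 2173 CPM in shOpa1, against 2231, 2164 and 2554 CPM in shControl. Library 3 of shOpa1 was above library 2 of shControl, so the groups overlapped by a narrow margin. Its change was -0.18 on the log2 scale (SE 0.0821; edgeR, adjusted p = 0.126). With the replicate block it was also -0.18 and passed (edgeR, adjusted p = 0.00331), and the authors' deposited table lists -0.17 with an adjusted p of 0.00237. The first 2 pairs gave -0.14 (edgeR, adjusted p = 0.0664) and pair 3 gave -0.23. Map2 (ENSMUSG00000015222) lies on chromosome 1 from 66175273 to 66442583, Mapt (ENSMUSG00000018411) on chromosome 11 from 104231390 to 104332090 and Dclk1 (ENSMUSG00000027797) on chromosome 3 from 55242364 to 55539068, all on the plus strand. Prph (ENSMUSG00000023484) lies on chromosome 15 from 99055174 to 99058978, also on the plus strand.

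**Figure D3:**
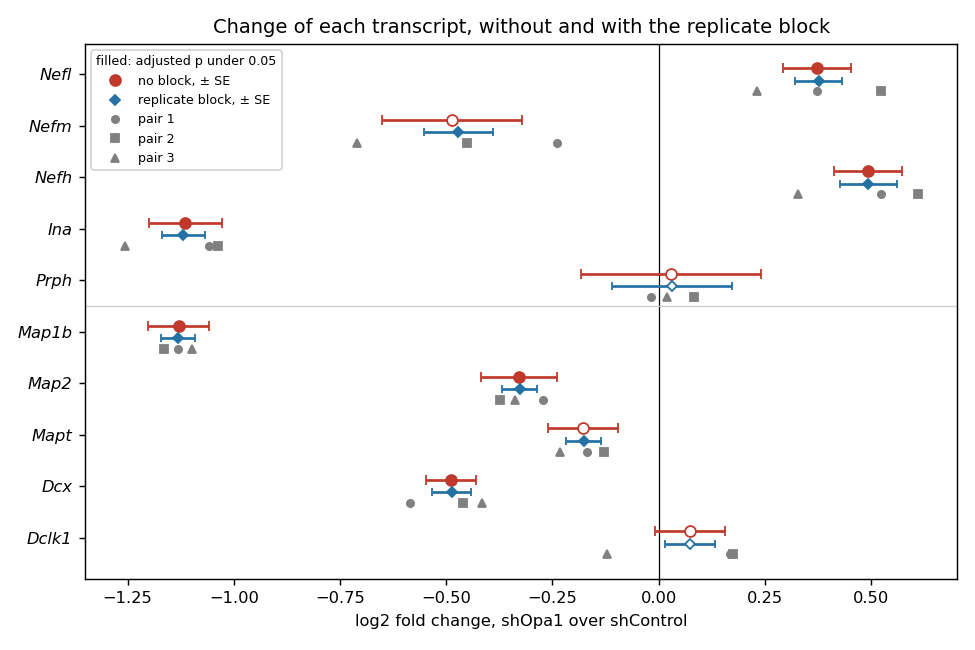
Log2 fold change of shOpa1 over shControl for each transcript, without the replicate block (red circles) and with it (blue diamonds), each ± SE and filled where the adjusted p was under 0.05. Grey symbols are the differences within pairs 1, 2 and 3 on the log2 scale. Nefm and Mapt are filled only with the block, and pair 3 of Dclk1 lies on the other side of 0 from pairs 1 and 2.

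Within the microtubule-associated proteins Map1b lost share, with 16.0, 15.9 and 16.6% of the summed FPKM in shOpa1 against 26.9, 27.3 and 26.2% in shControl. Mapt made up 48.0, 48.6 and 49.1% in shOpa1, against 41.3, 40.6 and 42.6% in shControl, though its log2 fold change was -0.18. The mean share of Dclk1 was 11.1 ± 1.21% in shOpa1 and 7.92 ± 0.335% in shControl, and that of Dcx was 6.69 ± 0.295% in shOpa1 and 7.12 ± 0.730% in shControl (SD, n = 3 each). The exact permutation p was 0.1 for Map1b, Mapt, Map2 and Dclk1 and 0.5 for Dcx. The ratio of Map1b to Map2 was 0.921 ± 0.0121 in shOpa1 and 1.61 ± 0.0785 in shControl (SD, n = 3 each; exact permutation p = 0.1), so that Map1b had the higher FPKM of the pair in every shControl library and the lower in every shOpa1 library. The ratio of Map2 to Mapt was 0.361 ± 0.00868 in shOpa1 and 0.401 ± 0.0190 in shControl (SD, n = 3 each; exact permutation p = 0.1).

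The order of the 10 transcripts by FPKM differed between the groups. In shOpa1 it ran from Mapt at 272 ± 14.6 through Map2 at 98.3 ± 7.70, Map1b at 90.5 ± 6.09, Ina at 90.0 ± 9.70, Nefl at 62.6 ± 1.54, Dclk1 at 61.7 ± 4.74, Dcx at 37.4 ± 0.481, Nefm at 14.7 ± 1.63 and Nefh at 9.38 ± 0.279 to Prph at 1.599 ± 0.272 FPKM (SD, n = 3 each). In that group Map2 and Map1b, Map1b and Ina, and Nefl and Dclk1 overlapped. In shControl it ran from Mapt at 308 ± 27.7 through Map1b at 198 ± 9.10, Ina at 195 ± 6.06, Map2 at 123 ± 11.0, Dclk1 at 58.6 ± 4.27, Dcx at 52.5 ± 2.59, Nefl at 48.3 ± 4.82, Nefm at 20.6 ± 4.72 and Nefh at 6.67 ± 0.515 to Prph at 1.57 ± 0.315 FPKM (SD, n = 3 each). There Map1b and Ina, Dclk1 and Dcx, and Dcx and Nefl overlapped. Both orders use full exon lengths. With shared exon bases left out of the lengths, Ina was at 105 and Nefl at 93.1 FPKM in shOpa1. In shControl they were then at 227 and 71.9 FPKM. Ina and Nefl so move up the order in both groups, and their places in it are uncertain. Among all tested genes the 5 microtubule-associated proteins lay between percentiles 93.4 and 99.5 of mean FPKM. Prph lay at percentile 34.3 and Nefh at percentile 65.5.

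**Figure D4:**
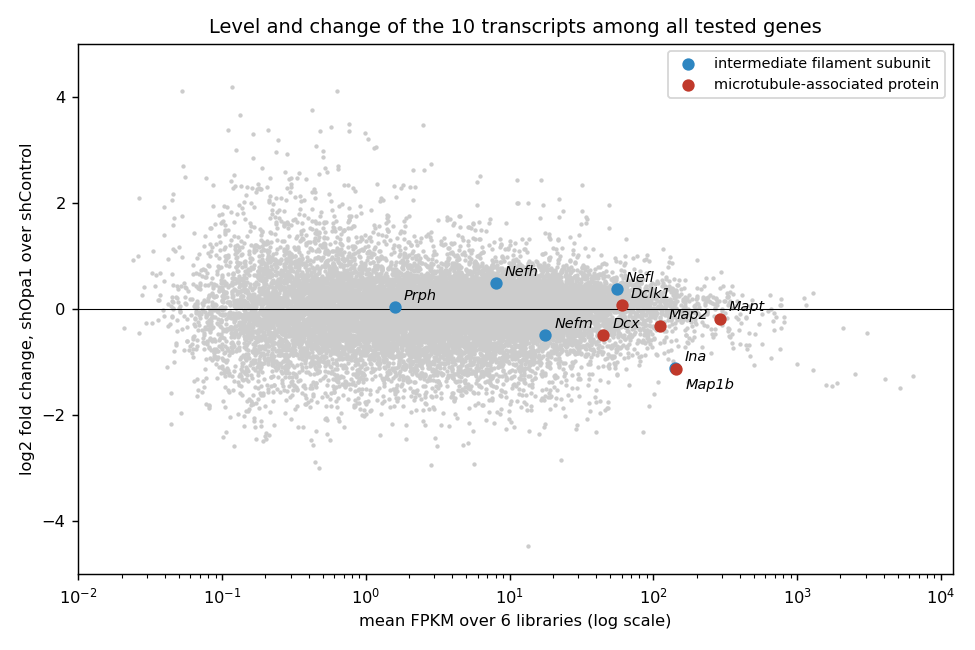
Log2 fold change of shOpa1 over shControl against mean FPKM over the 6 libraries (log scale) for all 16562 tested genes in grey, with filament subunits in blue and microtubule-associated proteins in red. Ina and Map1b fall on nearly the same point, at -1.11 and -1.13 and both at percentile 98.7 of level.

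The transcripts most like Ina and Mapt, the most abundant of each family per length, were sought among 12041 genes with a mean of at least 50 counts. Likeness was the root mean square difference of centred log2 CPM over the 6 libraries. For Ina it is set largely by the difference between the groups. For Mapt, whose libraries numbered 3 were the highest of each group, the spread within groups weighs in as well. Nearest to Ina were Lynx1 (0.0176), Atpaf1 (0.0215) and Etnk1 (0.0379), with log2 fold changes of -1.13, -1.12 and -1.14. Nearest to Mapt were Camk2d (0.0128), Sntg1 (0.0149) and Zfp799 (0.0205), with log2 fold changes of -0.18, -0.16 and -0.18.

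Sequences are shown for the transcripts that fell. A search of the same fold changes had earlier picked out GAAACTA in 3' untranslated regions, so its link with lower transcripts is only a description of these data. Of 13840 tested genes with a 3' untranslated region searched here, 9.62% carried it, and 50.3% of the carriers were called lower, against 18.7% of the others. Of the 10 members, Map1b and Dcx carried it, once each, and Opa1 held it in its coding sequence. Each window below has the 7 bases in capitals, written 5′ to 3′ on the transcript strand from GENCODE release M21 (GRCm38).
Map1b 3' untranslated region, chr13:99425731-99425757, minus strand: tcttgaatttGAAACTAccttttctaa
Map1b coding sequence, chr13:99429655-99429681, minus strand: agatgagtcaGAAACTAtccccacaga
Dcx 3' untranslated region, chrX:143863237-143863263, minus strand: aatttgttcaGAAACTAgtcttccttc
Opa1 coding sequence, chr16:29611574-29611600, plus strand: cgacacaaagGAAACTAttttcagtat

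The site of Map1b starts at base 59 of a 3' untranslated region of 4360 bases, and that of Dcx at base 298 of 7709. Long regions hold the sequence more often. Among genes whose region was within 1.2-fold of the same length, 23.0% of 956 carried it for Map1b and 46.4% of 224 for Dcx. Ina, with 1677 bases, and Map2, with 3576 bases, also fell and held no copy, nor did the rising Nefl and Nefh, with 1648 and 591 bases. The 4 remaining members held none either. The part of this sequence in the falls of Map1b and Dcx was not tested.

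The promoters of Ina and Map1b are shown because these transcripts fell by nearly the same amount. Each holds 300 bases around the gene start from RefSeq (GRCm38.p6), and capitals mark matches on either strand to TATAAA or GGGCGG, which did not overlap. RefSeq and the gene models used for counting place these starts differently. The Map1b window lies wholly upstream of its gene model, while that of Ina reaches into its own.
Ina, chr19:47014431-47014730, plus strand: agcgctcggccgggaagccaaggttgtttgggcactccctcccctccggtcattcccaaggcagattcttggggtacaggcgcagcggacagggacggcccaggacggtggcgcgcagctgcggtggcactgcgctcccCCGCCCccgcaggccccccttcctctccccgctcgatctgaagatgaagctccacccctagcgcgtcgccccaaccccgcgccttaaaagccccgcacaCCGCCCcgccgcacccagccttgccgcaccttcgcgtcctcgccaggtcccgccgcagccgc
Map1b, chr13:99516553-99516852, minus strand: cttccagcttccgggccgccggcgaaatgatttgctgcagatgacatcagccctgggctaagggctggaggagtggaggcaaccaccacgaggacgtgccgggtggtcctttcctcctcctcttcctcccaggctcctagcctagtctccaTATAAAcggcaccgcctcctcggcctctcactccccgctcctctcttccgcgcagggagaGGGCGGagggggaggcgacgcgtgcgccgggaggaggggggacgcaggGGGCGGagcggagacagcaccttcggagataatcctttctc

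TATAAA, the letters of a TATA box, occurred once in the Map1b window and not in that of Ina. Its distance from the gene start was not tested. The GC box, GGGCGG, occurred 2 times in each. Among 32851 promoters of the same length, 13.6% held TATAAA and 35.7% held GGGCGG. Neither window held CCAAT, TGACGTCA (the cAMP response element) or TTGCATCA (an amino acid response element), which 37.4, 1.79 and 0.895% of the promoters held. The windows were 71.7% G or C for Ina and 65.7% for Map1b. Promoters of Prph, Map2, Dcx and Dclk1 were also in the table.

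Other genes of the neuronal cytoskeleton, in lists chosen with earlier results of these data known, were more often lower than higher in shOpa1. In 10 lists with 125 tested genes, 60 were lower and 12 higher (edgeR, adjusted p under 0.05), which is 48.0 and 9.60%, beside 20.0 and 18.9% of all tested genes. Their median log2 fold change was -0.29, beside -0.01 over all tested genes. With the replicate block 75 were lower and 17 higher, beside 30.7 and 28.8% of all tested genes. Of these genes 125 had a 3' untranslated region searched, and 16 carried GAAACTA, of which 11 were lower, while 49 of the 109 others were lower. The sign of each list's median was the same under the 3 other scalings tried. All tested genes, set beside the lists, were not matched to them for level. The same shares of all tested genes stand beside the counts of each list below.

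Of 14 tested tubulins, the building blocks of microtubules, 9 fell and 2 rose, with a median of -0.39, and none carried GAAACTA. The main alpha-tubulin of young neurons, Tuba1a, was at 1437 ± 141 CPM in shOpa1 and 3191 ± 153 CPM in shControl (log2 fold change -1.15, SE 0.0853). Tubb2b was at 749 ± 77.9 CPM in shOpa1 and 1565 ± 74.8 CPM in shControl, and Tubb3, the neuronal beta-tubulin, at 845 ± 166 CPM in shOpa1 and 1598 ± 83.0 CPM in shControl (SD, n = 3 each). Tubb2a fell by 0.88 on the log2 scale. The 2 that rose were the gamma-tubulins Tubg1 and Tubg2, by 0.24 and 0.33. The call of Tubg1 was lost whichever single library was left out, and that of Tubg2 without shControl replicate 1 (edgeR, adjusted p = 0.0571). Among the tubulins that fell, Tubb4b, Tuba1c and Tuba1b lost their calls in 3, 3 and 4 of the 6 fits without 1 library. Tuba1c also lost its call with no low-count filter and with pairs 1 and 2 alone. The 14 summed to between 5047 and 6429.6 CPM in shOpa1 and between 9801 and 10661 CPM in shControl. Alpha- and beta-tubulin genes have near-identical copies, so reads may be split among them and single values are uncertain.

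Plus-end tracking proteins, which ride on growing microtubule tips, were lower in 13 of 14 cases, with a median of -0.47 (10 of the 13 held no GAAACTA). Apc, which anchors microtubule ends, was at 200.1 ± 1.82 CPM in shOpa1 and 660.0 ± 31.0 CPM in shControl, and Clasp2, which stabilises them, at 281 ± 15.4 CPM in shOpa1 and 567 ± 15.8 CPM in shControl (SD, n = 3 each). Clip2 and Slain2 fell by 0.85 and 0.66. Mapre3, the member that did not pass, had a log2 fold change of 0.09. Apc and Clip2 carried GAAACTA.

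All 4 stathmins, which bind free tubulin, fell, by 0.66 (Stmn1), 0.41 (Stmn2), 0.24 (Stmn3) and 0.54 (Stmn4) on the log2 scale. Stmn3 lost its call without shControl replicate 2 or shOpa1 replicate 1 (edgeR, adjusted p of 0.0706 and above). The other structural microtubule-associated proteins included 7 lower and 1 higher of 16 tested, or 11 and 2 with the replicate block. Tppp, a tubulin-polymerising protein known from oligodendrocytes and a GAAACTA carrier, was at 29.8 ± 1.37 CPM in shOpa1 and 103 ± 8.50 CPM in shControl (SD, n = 3 each). Jpt1 and Map7d2 fell by 0.58 and 0.56, and Map6d1 rose by 0.83. Of 8 tested oligodendrocyte-lineage markers 3 were lower and 0 higher, beside 20.0 and 18.9% of all tested genes, and the others did not pass. The list summed to between 50.3 and 67.8 CPM in shOpa1 and between 64.6 and 97.6 CPM in shControl. Sox10 and Mag were too low to test, Sox10 with 0 counts in all shControl libraries, and the part of these cells in the fall of Tppp was not tested. Of the other doublecortin relatives, Dclk2 fell by 0.21, a call lost without shControl replicate 1 or 2 or shOpa1 replicate 2, under upper-quartile scaling and with no low-count filter (adjusted p between 0.0507 and 0.0830). Dclk3 and Dcdc2a had log2 fold changes of -0.94 and 0.29 and did not pass, though Dclk3 was lower with the replicate block (edgeR, adjusted p = 0.00018).

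Of 13 cytoskeletal linkers and turnover factors of intermediate filaments 7 fell and none rose (edgeR; 8 and 0 with the replicate block). Trim2, a ubiquitin ligase that binds the light neurofilament protein in mice, was at 63.7 ± 7.77 CPM in shOpa1 and 306 ± 9.45 CPM in shControl (SD, n = 3 each; log2 fold change -2.27). Trim2 carried GAAACTA, as did Ank3, the ankyrin of the axon initial segment, which fell by 0.79. Ank2 fell by 0.81.

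Kinases and phosphatases of neurofilaments, tau and MAPs went both ways, with 9 of 26 lower and 4 higher, or 12 and 7 with the replicate block. Of all tested genes 20.0% were lower and 18.9% higher, or 30.7 and 28.8% with the block. The Cdk5 activators Cdk5r1 and Cdk5r2 fell by 0.51 and 0.70, Mapk3 by 0.63 and the tau kinase Mark4 by 0.47 on the log2 scale. Of 15 tubulin-modifying enzymes 5 fell and 1 rose, or 8 and 1 with the replicate block. The tubulin carboxypeptidases Vash1 and Vash2, both carriers, fell by 1.04 and 1.63, the tubulin acetyltransferase Atat1 fell by 0.62, and Ttll4 rose by 0.54. Of 10 severing and depolymerising factors 3 fell and 1 rose, with Spast at -0.79, Katnal1 at -1.20 and Kif2a at -0.71 among those that fell.

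The remaining intermediate filament genes gave 3 higher and 2 lower of 10 tested, or 4 and 5 with the replicate block. Of all tested genes 18.9% were higher and 20.0% lower, or 28.8 and 30.7% with the block. Synm, a carrier, fell by 1.23 and Sync, at under 1 CPM, had a log2 fold change of -1.10 and was called lower, while the lamins Lmnb1 and Lmna rose by 0.73 and 0.46. Sync lost its call without shControl replicate 1 or 2 or shOpa1 replicate 1 or 2, and Lmna without shControl replicate 1 or 2. Gfap, the filament of astrocytes, was at 1.45 CPM in shOpa1 and 0.822 CPM in shControl (log2 fold change 0.82; edgeR, adjusted p = 0.0398). This call was lost in 5 of the 6 fits without 1 library (kept without shOpa1 replicate 1) and with DESeq2, limma-voom, no low-count filter and pairs 1 and 2 alone (adjusted p between 0.0537 and 0.116). Other astrocyte markers went the other way, with Slc1a2, S100b and Gja1 at log2 fold changes of -1.26, -2.22 and -2.37. Of 9 tested 3 were lower, or 7 with the replicate block. Levels were low for S100b (0.172 CPM in shOpa1, 0.822 CPM in shControl) and Gja1 (0.698 CPM in shOpa1, 3.62 CPM in shControl). Vim and Nes, filaments of progenitors and glia, were at 34.2 and 21.2 CPM in shOpa1 and at 49.7 and 14.3 CPM in shControl and did not pass. With the replicate block Vim was lower (edgeR, adjusted p = 1.6e-05) and Nes higher (edgeR, adjusted p = 0.0137). The 9 progenitor markers summed to between 56.9 and 116 CPM in shOpa1 and between 109 and 231 CPM in shControl, and of the 8 tested 3 were lower, among them Sox2, which fell by 0.98, Eomes, by 0.94, and Hes5, by 1.42. Hes5, at 0.589 CPM in shOpa1 and 1.58 CPM in shControl, lost its call without shOpa1 replicate 1 or 2. Their part in these results was not tested.

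Markers of neurons themselves gave 3 higher and 5 lower of 11 tested, beside 18.9 and 20.0% of all tested genes. Their median was -0.19. The count of lower ones was 3 under upper-quartile scaling, with no low-count filter and without shControl replicate 1 or 3 or shOpa1 replicate 1 or 2. Snap25 and Elavl3 fell by 0.58 and 0.57, Slc17a6, a glutamate transporter of vesicles, fell by 1.71, and Gad2 rose by 0.34. Syp and Elavl4 also rose, by 0.55 and 0.24, and Slc17a7 and Syn1 had log2 fold changes of -0.57 and -0.19 and were called lower. Gad1, at -0.17, did not pass, though it was lower with the replicate block (edgeR, adjusted p = 0.00925). Of the 5 tested markers of peripheral and brainstem neurons, where peripherin is known to be expressed, 2 fell, among them Chat, by 1.82. Chat was scarce, at 0.687 CPM in shOpa1 and 2.42 CPM in shControl. The whole list of these markers summed to between 13.2 and 20.97 CPM in shOpa1 and between 17.2 and 36.3 CPM in shControl. Of the 8 tested vascular and mesenchymal markers 1, Kdr, fell (by 1.36; not called without shOpa1 replicate 2), and the list summed to between 10.6 and 56.1 CPM in shOpa1 and between 15.7 and 28.1 CPM in shControl.

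**Figure D5:**
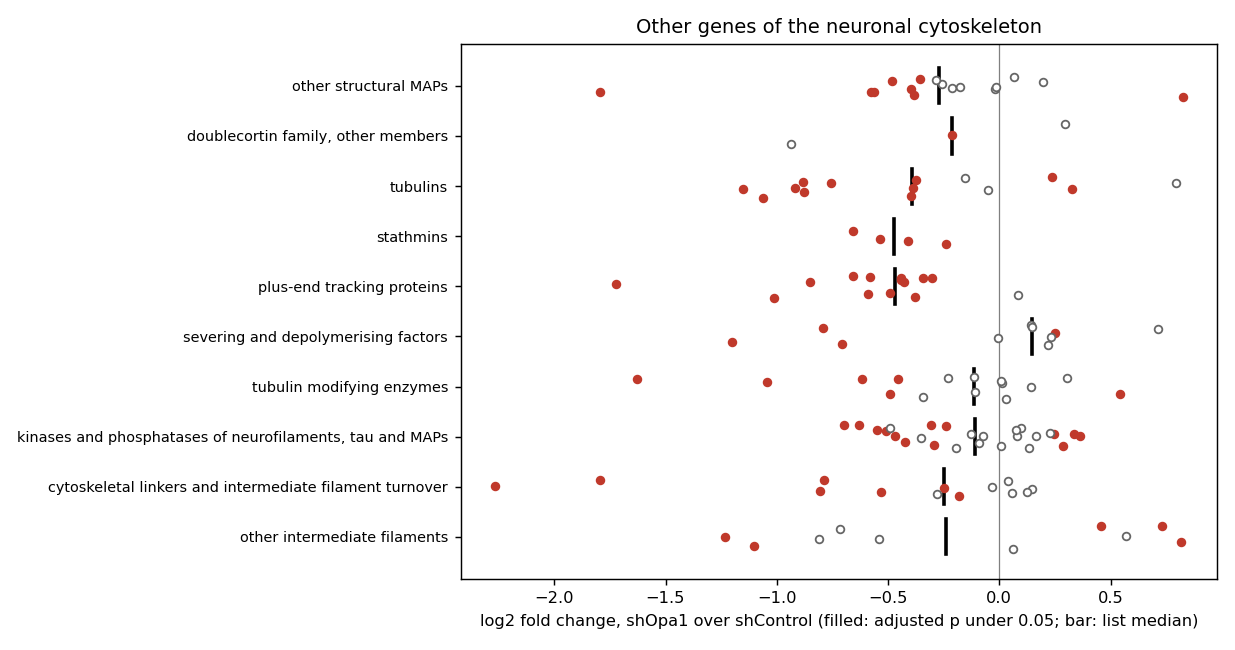
Log2 fold change of shOpa1 over shControl for the tested genes of 10 further lists of cytoskeletal genes, 1 point a gene, filled where the adjusted p was under 0.05, with the list median as a black bar. The tubulins, stathmins and plus-end tracking proteins lie mostly left of 0, and Trim2, among the turnover factors, lies furthest left at -2.27.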

How the data were processed

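RNA from 3 shOpa1 and 3 shControl cultures was sequenced with a stranded kit that selects mRNA, per the labels' protocols. The authors deposited raw read counts per gene, per the file headers from featureCounts 1.6.0, which ran on read pairs without a strand option and used gene models of Ensembl release 99 (GRCm38). HISAT2, DESeq2 and mm10 stand in the submitters' processing notes without versions. A second deposited table holds the authors' own comparison, with log2 fold changes, p-values, a score and size-factor-normalised signal per gene. Of 55471 identifiers, 55144 were paired with a symbol. Every value column was mapped, leaving 0 unmapped.

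Calls rest on edgeR 4.0.16 run in R 4.3.3 (TMM, default low-count filter, robust quasi-likelihood fit, group as the only term, Benjamini-Hochberg adjustment over 16562 genes, threshold 0.05). Standard errors are the log2 fold change over the square root of F. FPKM divides CPM by the union exon length. Pair differences used log2(CPM + 0.5). Same-numbered libraries deviated together (r = 0.519, 0.537 and 0.666). The numbers were therefore taken as pairs for the pair differences and the replicate block, but not for the calls made without the block. The p-values reflect only how much these libraries vary, whose separate origin is given only as biological replicates. Fits were tested on simulated data.

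Members and lists were chosen with earlier results of these data known. Named genes are the members, Opa1, up to 4 genes with the smallest p of each list and the 3 nearest genes of Ina and Mapt. Tubg1, Tubg2, Tubb4b, Tuba1c, Tuba1b, Mapre3, Nt5c2, Vim, Nes, Gfap, Sox10 and Mag were added after their values were seen. So were the neuron markers Syp, Elavl4, Syn1, Slc17a7 and Gad1. Some genes that this rule names are not reported here. Promoters came from RefSeq and transcripts from GENCODE, and the factor for 3' untranslated regions of like length was set after the data were seen. Python 3.11.15 with scipy 1.17.1 ran the exact tests.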

Additional observations from a re-analysis of the deposited data

How the results depend on the processing

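Results were recomputed with DESeq2's size factors, upper-quartile scaling, mitochondrial genes left out, DESeq2's Wald test, limma-voom, no low-count filter, the replicate block, replicate 3 as a second batch, pairs 1 and 2 alone and each library left out. Over these 15 settings Nefl, Nefh, Ina, Map1b and Dcx kept their direction and their call. Members higher were 2 in each, and members lower 3 to 4 when single libraries were left out. Of 150 values for members, 140 kept their side of the threshold. Map2 lost its call without 4 single libraries, as given above. Nefm passed in 4 settings and Mapt in 2, the block and replicate 3 as a second batch (adjusted p = 0.00652 for Mapt). The replicate block moved calls over all genes to 4770 higher and 5081 lower. Leaving out single libraries gave 2168 to 3168 higher and 2421 to 3458 lower. Without division by length the changes in share kept their sign. Of 510 counts for the lists, 76 moved by more than 1.5 times. Counts were lowest for Prph among the members.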
